A study of Rattus norvegicus with 18 samples.

Results

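The genes described here are 42 genes of cell division and DNA replication: 25 of mitosis, 12 of replication and 5 others of the cell cycle. They were taken from named lists, and a gene counts as measured where the platform annotation maps at least 1 probe set to its symbol and to no other. By that rule 38 of the 42 were measured, among 14217 genes on the array: 23 mitosis genes, 11 replication genes and 4 others. Ndc80 and Tpx2 had no such probe set, and Rrm2 and Hmgb2 had only probe sets shared with other symbols. Each gene is read by its brightest probe set, by the mean of the 18 arrays, and 9 of the 38 have more than 1 probe set.

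The study followed colitis in rats after 1 enema of 10 mg TNBS (trinitrobenzene sulfonic acid, a hapten) in 50% ethanol. Total RNA of full-thickness colon was read on 1 Affymetrix Rat Genome array per rat, in 6 healthy rats given saline and in 3 TNBS rats on each of days 2, 5, 7 and 14. The TNBS rats were chosen for the arrays, day by day, by their inflammatory markers (myeloperoxidase activity, loss of body weight and the ratio of colon weight to length), no group received ethanol alone, and strain, sex and age are not given in the labels. Extraction cannot be told apart from treatment, since the entry for it reads Trizol in every TNBS sample and names a technical manual in every control.

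Before a cell divides it copies its DNA once. The MCM proteins, loaded on origins, become the replicative helicase together with the GINS complex; PCNA is the sliding clamp of the polymerases; ribonucleotide reductase, thymidylate synthase and thymidine kinase supply nucleotides. In mitosis CDK1 with cyclins A and B starts chromosome condensation and spindle assembly, the kinetochore and its checkpoint (BUB1, BUBR1, MAD2, TTK) wait for attachment, and the anaphase-promoting complex with CDC20 and UBE2C then destroys securin (PTTG1) and the cyclins. In the healthy colon dividing cells lie mainly in the lower crypt, and in an inflamed wall leukocytes, fibroblasts and endothelium can divide as well. In homogenised colon, more or fewer cells of a type and more or less RNA per cell cannot be told apart.

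Promoters of the mitosis and replication genes were searched for 3 motifs, and 4 promoters are shown because their genes were among those that rose. RefSeq promoters of build GRCr8, each from 250 bases before to 50 bases after the start, were in the table for 32 of the 38 measured genes. Searched on both strands, with overlapping matches each counted, were CCAAT, the sequence bound by NF-Y; TTTGAA, the core of the element known as CHR; and the E2F site in 4 forms, written TTCCCGC in the first form, TTCGCGC in the second form, TTGCCGC in the third form and TTGGCGC in the fourth form. TTTGAA was found in 14 of 19 mitosis promoters and 1 of 10 replication promoters, against 18.3% of all 33469 promoters of this length. An E2F form was found in 3 of the 19 mitosis promoters and 8 of the 10 replication promoters, against 9.52% of all promoters. CCAAT was found in a similar share of both, 14 of 19 and 7 of 10, against 37.5%. No test of these shares was made. Below, capitals mark every match, and each promoter is written 5′ to 3′ on its gene's strand: Pttg1 from chr10:28406277-28406576 (minus strand), Cdc20 from chr5:137255750-137256049 (minus strand), Mcm2 from chr4:122918045-122918344 (minus strand) and Gins1 from chr3:160184670-160184969 (plus strand).
Pttg1: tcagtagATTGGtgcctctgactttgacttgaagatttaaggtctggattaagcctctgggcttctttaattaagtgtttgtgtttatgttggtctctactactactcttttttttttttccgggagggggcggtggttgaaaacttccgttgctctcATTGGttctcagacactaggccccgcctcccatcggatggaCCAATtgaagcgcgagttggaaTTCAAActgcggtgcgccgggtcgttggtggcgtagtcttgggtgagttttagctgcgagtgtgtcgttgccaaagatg
Cdc20: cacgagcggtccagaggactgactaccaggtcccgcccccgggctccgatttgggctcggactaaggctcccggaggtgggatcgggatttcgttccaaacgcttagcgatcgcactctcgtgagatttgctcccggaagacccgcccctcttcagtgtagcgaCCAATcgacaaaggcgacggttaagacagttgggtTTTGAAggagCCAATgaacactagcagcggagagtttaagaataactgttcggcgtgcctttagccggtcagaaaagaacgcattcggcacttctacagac
Mcm2: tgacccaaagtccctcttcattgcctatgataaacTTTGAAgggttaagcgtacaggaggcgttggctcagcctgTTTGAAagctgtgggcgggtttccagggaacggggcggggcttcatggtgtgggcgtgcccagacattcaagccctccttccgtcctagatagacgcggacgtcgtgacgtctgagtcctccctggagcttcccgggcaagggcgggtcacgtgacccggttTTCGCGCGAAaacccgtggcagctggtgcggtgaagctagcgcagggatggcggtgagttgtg
Gins1: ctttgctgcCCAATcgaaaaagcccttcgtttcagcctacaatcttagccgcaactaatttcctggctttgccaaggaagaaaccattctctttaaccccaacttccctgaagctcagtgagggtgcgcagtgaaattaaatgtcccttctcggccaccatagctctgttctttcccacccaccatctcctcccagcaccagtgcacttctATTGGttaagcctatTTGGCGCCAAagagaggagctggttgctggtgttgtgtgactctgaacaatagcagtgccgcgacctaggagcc

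The Pttg1 promoter holds 3 CCAAT matches and 1 TTTGAA match, and the Cdc20 promoter 2 and 1, with no E2F form in either. Mcm2 holds 2 E2F matches, which overlap as a palindrome near the start, and 2 TTTGAA matches farther upstream; Gins1 holds 2 E2F matches, again 1 palindrome, and 2 CCAAT matches. Of the 8 genes with a promoter that rose on any day, 5 held TTTGAA, 6 held CCAAT and 3 held an E2F form; of the 24 that did not, 10, 16 and 9 did. A match describes the letters only.

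The deposited values of the control arrays lie lower as a whole: their medians were 4.27 to 4.30, against 5.02 to 5.07 in the TNBS arrays, a mean difference of 0.76. On the deposited scale the median difference of all probe sets from control was therefore 0.54 to 0.59 on every day. Differences from control are given here after quantile normalization across the 18 arrays, as log2 values ± SE of limma with 3 TNBS arrays against 6 controls. A gene is called higher or lower only where limma's Benjamini-Hochberg adjusted p over 31042 probe sets was under 0.05 on that scale and on the deposited scale, a rule under which falls are hard to reach. Colon epithelium and muscle were present in both conditions: Vil1, Lgals4, Krt20, Muc2, Myh11, Actg2 and Des all lay at or above the 98.3th percentile of probe sets in control and TNBS colon.

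On day 2, 8 of the 38 genes rose (21.1%; 11.4% of all genes on the array were called higher). They were 6 mitosis genes, Pttg1, Aurka, Ube2c, Cdc20, Ccnb2 and Cdca3, and 2 replication genes, Mcm2 and Gins1. On day 5, 6 rose (15.8%; all genes 14.7%): Pttg1, Aurka, Cdc20, Cdca3, Birc5 and Mcm2. On day 7 Pttg1 was the 1 gene that rose (2.63%, all genes 14.7%), and on day 14 none of the 38 did (all genes 6.39%). At an unadjusted p under 0.05, 5 of the 38 were higher on day 14, against 13.3% of all genes. With all arrays in, the share of risen genes was above that of all genes on day 2, close to it on day 5 and below it on days 7 and 14, but the order on day 2 rests on single arrays. The best known proliferation markers, Mki67, Top2a, Cdk1, Ccna2, Ccnb1 and Pcna, did not pass the test on any day by their main probe sets.

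No gene of the 38 was lower on both scales on any day (all genes 0.724%, 1.43%, 1.53% and 0.176% on days 2, 5, 7 and 14). At an unadjusted p under 0.05 after quantile normalization, 1, 1, 5 and 2 of the 38 were lower, against 18.4%, 23%, 25.6% and 14.3% of all genes. After quantile normalization alone Ccnd1 was lower on day 2 (1 of 38; all genes 10.7%) and day 5 (1 of 38; all genes 16.5%), Ccnd1, Stmn1, Melk and Tyms on day 7 (4 of 38; all genes 18.7%), and none on day 14 (all genes 6.35%).

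Without day 2 replicate 3, 1 gene (Aurka) rose on day 2, which is 2.63% of the 38 against 6.31% of all genes in the same fit, so that the order turned. Without day 2 replicate 2 the count was 3 (7.89%; all genes 6.75%), and without day 2 replicate 1, in which macrophage and neutrophil markers were the least raised of the 3, it was 12 (31.6%; all genes 13.9%). Without control replicate 1 or control replicate 6, the controls with the lowest levels of these genes, it was 4 (10.5%; all genes 10.1% and 9.78%), a share near that of all genes. The day 5 count was 3 without day 5 replicate 2 (7.89%; all genes 9.78%), and the rise of Pttg1 on day 7 lost its call without control replicate 1 or 6 or day 7 replicate 1 or 2.

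The securin gene and the 2 other genes of anaphase control had the highest median difference of the role groups on each day; these groups were formed after the values were seen. All 3 rose on day 2, 2 of 3 on day 5, 1 on day 7 and 0 on day 14 (all genes 11.4%, 14.7%, 14.7% and 6.39%). Their median differences were 0.96, 0.98, 0.49 and 0.44. Pttg1, which encodes securin, the inhibitor of separase, read 5.73, 6.69 and 6.78 (lowest, median and highest) in controls, 6.95, 7.84 and 8.08 at day 2, 7.47, 8.27 and 7.43 at day 5, 7.55, 7.40 and 6.98 at day 7, then 7.24, 7.63 and 7.04 at day 14. Every TNBS array lay above every control, so the groups did not overlap on any day. Pttg1 rose by 1.13 ± 0.28 on day 2 (adjusted p = 0.00989, 2.19-fold), by 1.23 ± 0.28 on day 5 (adjusted p = 0.00401, 2.35-fold) and by 0.82 ± 0.28 on day 7 (adjusted p = 0.0358), and its difference on day 14 was 0.81 (adjusted p = 0.0687). By the main probe sets it was the 1 gene of the 38 with a call on 3 days.

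Cdc20, the activator of the anaphase-promoting complex, read 5.28, 6.10 and 6.50 in controls, 6.27, 7.14 and 7.45 at day 2, 6.77, 7.62 and 6.63 at day 5, 6.56, 6.59 and 6.39 at day 7, then 6.22, 6.88 and 6.28 at day 14. The 3 day 5 arrays lay above all controls. Among the controls lay replicate 1 of day 2, replicate 3 of day 7 and replicates 1 and 3 of day 14, and the rest lay above them. Cdc20 rose by 0.93 ± 0.28 on day 2 (adjusted p = 0.0322) and 0.98 ± 0.28 on day 5 (adjusted p = 0.018). Ube2c, the ubiquitin-conjugating enzyme of the same complex, rose by 0.96 ± 0.32 on day 2 (adjusted p = 0.0472), and its differences on days 5, 7 and 14 were 0.77, 0.34 and 0.44 with no call.

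**Figure D1:**
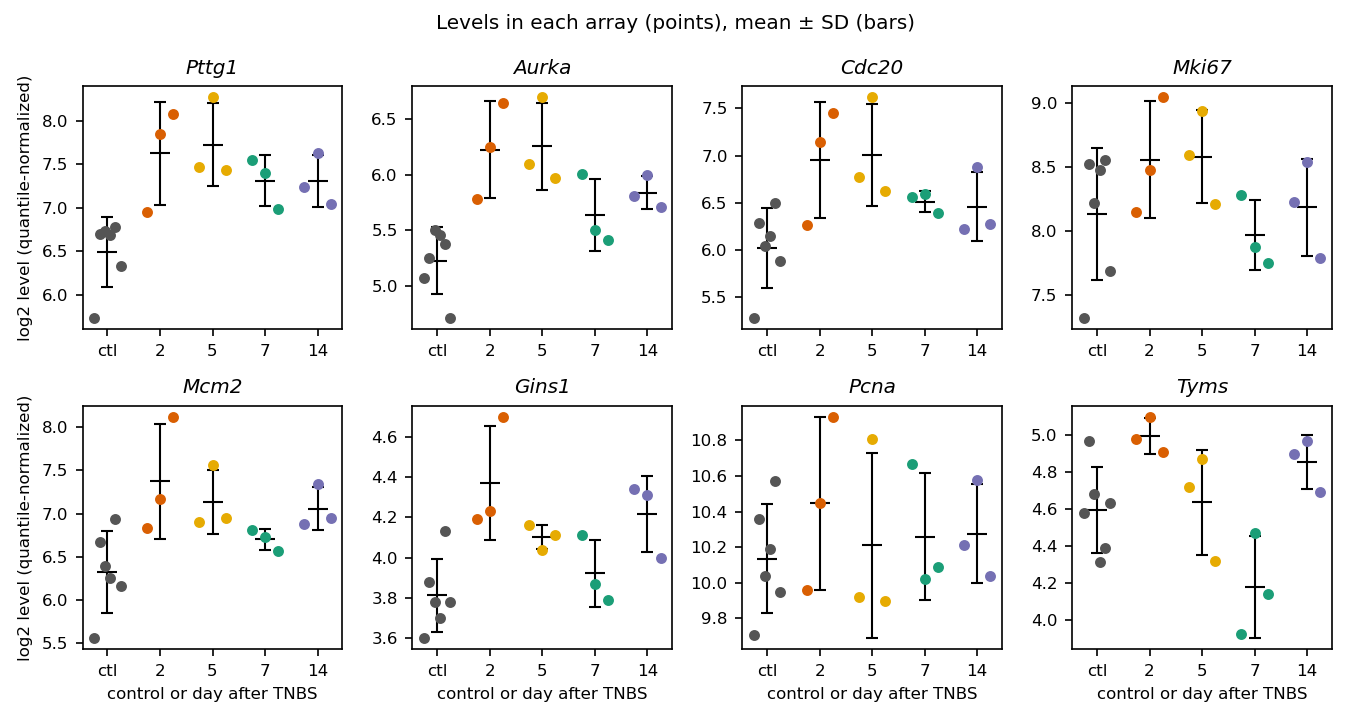
Log2 level after quantile normalization of 8 genes in each array (points) with mean ± SD per group (6 controls, 3 arrays per day). Pttg1 lies above every control in all 12 TNBS arrays, whereas Mki67 and Pcna overlap with the controls on every day.

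Of the 8 genes of entry into mitosis 3 rose on day 2 (37.5%, all genes 11.4%) and 2 on day 5 (25%, all genes 14.7%). Medians of the 8 genes were 0.30, 0.26, −0.08 and 0.08 over the 4 days. Aurka, the kinase of centrosome maturation, read 4.71, 5.31 and 5.50 in controls, 5.78, 6.25 and 6.65 at day 2, 6.10, 6.70 and 5.97 at day 5, 6.01, 5.50 and 5.41 at day 7, then 5.81, 6.00 and 5.71 at day 14. All arrays of days 2, 5 and 14 exceeded the highest control, and those of day 7 overlapped with the controls. Aurka rose by 1.00 ± 0.21 on day 2 (adjusted p = 0.00478) and 1.03 ± 0.21 on day 5 (adjusted p = 0.00251), near 2-fold on both days. Its call on day 2 held without each array in turn.

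Ccnb2, one of the B-type cyclins that activate CDK1, read 6.02, 6.95 and 7.46 in controls, 7.13, 7.79 and 7.98 at day 2, 7.51, 7.82 and 7.34 at day 5, 7.17, 6.90 and 6.81 at day 7, then 7.35, 7.53 and 6.95 at day 14. It rose by 0.78 ± 0.26 on day 2 (adjusted p = 0.0435), although day 2 replicate 1 lay within the control range, and missed the call on day 5 (0.71 ± 0.26, adjusted p = 0.0539). Cdca3, a trigger of mitotic entry, read 6.57, 7.53 and 7.79 in controls, 7.76, 8.04 and 8.39 at day 2, 7.95, 8.39 and 8.04 at day 5, 7.76, 7.37 and 7.28 at day 7, then 7.85, 7.95 and 7.43 at day 14. Its day 5 arrays lay above all controls, and it rose by 0.68 ± 0.23 on day 2 (adjusted p = 0.0496) and 0.75 ± 0.23 on day 5 (adjusted p = 0.0256).

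The main mitotic kinase and its other cyclins did not pass the test by their main probe sets. Ccnb1 read 5.68, 7.00 and 7.38 in controls, 6.85, 6.98 and 7.34 at day 2, 7.03, 7.67 and 6.62 at day 5, 6.72, 6.53 and 6.26 at day 7, then 6.97, 7.08 and 6.73 at day 14, so that arrays of every day lay inside the control range. Its differences were 0.25, 0.30, −0.31 and 0.12 with an SE of 0.32. Those of Cdk1 were 0.14, 0.01, −0.25 and −0.27 (SE 0.35), and those of Ccna2 0.32, 0.06, −0.36 and −0.25 (SE 0.34). The control arrays themselves spanned 1.71 for Ccnb1, 1.44 for Cdk1 and 1.83 for Ccna2, and a difference of 0.3 was below the SE of each. Plk1, the polo kinase, differed by 0.03, 0.05, −0.35 and −0.46, and Cks2, a small CDK-binding subunit, by 0.28, 0.22, 0.18 and 0.05, with no call.

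Genes of chromosome structure and the spindle motor did not pass the test by their main probe sets either, with medians of 0.33, 0.22, −0.30 and 0.05 on days 2, 5, 7 and 14. Mki67, the Ki-67 antigen that coats mitotic chromosomes and is the usual histological marker of cycling cells, read 7.32, 8.35 and 8.56 in controls, 8.15, 8.48 and 9.05 at day 2, 8.60, 8.94 and 8.21 at day 5, 8.28, 7.88 and 7.75 at day 7, then 8.23, 8.54 and 7.79 at day 14. On day 2, 1 array, and on day 5, 2 arrays exceeded the highest control, and the rest overlapped with the controls. Its differences were 0.42 ± 0.28 on day 2 (adjusted p = 0.32), 0.45 ± 0.28 on day 5 (adjusted p = 0.263), −0.16 on day 7 and 0.05 on day 14. Top2a, the topoisomerase that untangles sister chromatids, read 7.27, 8.34 and 8.52 in controls, 7.98, 8.44 and 8.91 at day 2, 8.41, 8.54 and 8.04 at day 5, 8.15, 7.75 and 7.53 at day 7, then 8.30, 8.43 and 8.12 at day 14. By this probe set the days overlapped with the controls, with differences of 0.33, 0.22, −0.30 and 0.17 (SE 0.25). Kif11, the motor that separates the spindle poles, differed by 0.03, −0.09, −0.77 and −0.09; its day 7 value had an adjusted p of 0.069 after quantile normalization and was 0.07 on the deposited scale.

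None of the 5 kinetochore and checkpoint genes rose by its main probe set, with medians of 0.27, 0.16, −0.42 and 0.02. Differences on day 2 ran from −0.03 for Nuf2, a subunit of the NDC80 complex, to 0.47 for Bub1b, which encodes the checkpoint kinase BUBR1. On day 7 they ran from −0.69 for Mad2l1, the MAD2 gene, to 0.05 for Bub1b, and on day 14 from −0.30 for Ttk, the checkpoint kinase MPS1, to 0.42 for Bub1b. Bub1, the checkpoint kinase, differed by 0.27, 0.22, −0.24 and 0.05.

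Of the chromosomal passenger and cytokinesis genes, Birc5 was the 1 of 4 that rose, on day 5 (25%, all genes 14.7%). Birc5, which encodes survivin, read 3.90, 4.09 and 4.46 in controls, 4.29, 4.27 and 5.07 at day 2, 4.81, 4.78 and 4.89 at day 5, 4.46, 4.26 and 4.08 at day 7, then 4.50, 4.70 and 4.48 at day 14. The day 5 arrays were tightly grouped above all controls (mean 4.83 ± 0.05, SD, n = 3), and the day 14 arrays also lay above them. It rose by 0.70 ± 0.16 on day 5 (adjusted p = 0.00423); on days 2 and 14 its differences of 0.41 and 0.43 had adjusted p of 0.0793 and 0.0897. Aurkb, the kinase of the passenger complex, differed by 0.19, −0.20, −0.45 and −0.14, Prc1, the bundler of midzone microtubules, by 0.30, 0.41, 0.29 and −0.09, and Racgap1, of the centralspindlin complex, by 0.27, 0.39, −0.25 and 0.20, with no call by these probe sets.

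Of the 7 genes of the replicative helicase 2 rose on day 2 (28.6%, all genes 11.4%) and 1 on day 5 (14.3%, all genes 14.7%). The day 5 share was thus near that of all genes. Medians of the 7 genes were 0.75, 0.47, 0.05 and 0.32 on days 2, 5, 7 and 14. Mcm2, a subunit of the MCM ring, read 5.56, 6.32 and 6.94 in controls, 6.83, 7.17 and 8.12 at day 2, 6.90, 7.56 and 6.95 at day 5, 6.81, 6.73 and 6.57 at day 7, then 6.88, 7.34 and 6.95 at day 14. In each of days 2, 5 and 14, 2 arrays exceeded the highest control, and all 3 of day 7 lay inside the control range. Mcm2 rose by 1.05 ± 0.28 on day 2 (adjusted p = 0.0169, 2.07-fold) and 0.81 ± 0.28 on day 5 (adjusted p = 0.0439), and its difference on day 14 was 0.73 ± 0.28 (adjusted p = 0.107). Its day 2 call was lost without day 2 replicate 3.

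Gins1, a subunit of the GINS complex, is the dimmest of the 38 genes, at the 34.8th percentile of probe sets. It read 3.60, 3.78 and 4.13 in controls, 4.19, 4.23 and 4.70 at day 2, 4.16, 4.04 and 4.11 at day 5, 4.11, 3.87 and 3.79 at day 7, then 4.34, 4.31 and 4.00 at day 14. The day 2 arrays lay above all controls, by little in 2 of them. Gins1 rose by 0.56 ± 0.13 on day 2 (adjusted p = 0.00757), and its day 14 difference of 0.40 had an adjusted p of 0.0553.

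Mcm5 read 5.79, 6.32 and 6.97 in controls, 6.49, 7.16 and 7.96 at day 2, 6.63, 7.02 and 6.82 at day 5, 6.45, 6.45 and 6.26 at day 7, then 6.15, 6.97 and 6.59 at day 14. On day 2, 2 arrays exceeded the controls, and its difference of 0.85 ± 0.30 missed the call (adjusted p = 0.0584). The other ring subunits differed on day 2 by 0.97 ± 0.39 for Mcm3 (adjusted p = 0.0902), 0.75 ± 0.28 for Mcm6 (adjusted p = 0.0721), 0.48 ± 0.30 for Mcm4 and 0.33 ± 0.23 for Mcm7. In day 2 replicate 3 Mcm3 read 7.82, against 5.83 and 6.18 in day 2 replicates 1 and 2. On day 7 the 6 ring subunits ran from −0.50 (Mcm4) to 0.38 (Mcm2 and Mcm3).

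No gene of the sliding clamp and nucleotide supply rose by its main probe set, with medians of 0.31, 0.19, −0.20 and 0.03. Pcna read 9.71, 10.12 and 10.57 in controls, 9.96, 10.45 and 10.93 at day 2, 9.92, 10.81 and 9.90 at day 5, 10.67, 10.02 and 10.09 at day 7, then 10.21, 10.58 and 10.04 at day 14. At least 1 array of every day lay inside the control range, and the differences were 0.31, 0.07, 0.12 and 0.14 (SE 0.25). Tyms, thymidylate synthase, read 4.31, 4.60 and 4.97 in controls, 4.98, 5.10 and 4.91 at day 2, 4.72, 4.87 and 4.32 at day 5, 3.92, 4.47 and 4.14 at day 7, then 4.90, 4.97 and 4.69 at day 14. It was at the upper edge of the controls on day 2 and at their lower edge on day 7, with a difference of 0.40 on day 2 (adjusted p = 0.0729) and of −0.42 on day 7 (adjusted p = 0.0494), which on the deposited scale was 0.27. Rrm1, the large subunit of ribonucleotide reductase, differed by 0.31, 0.32, −0.14 and −0.07, and Tk1, thymidine kinase, by 0.29, 0.48, −0.25 and −0.07.

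The 4 other cell cycle genes did not rise by their main probe sets. Ccnd1, cyclin D1 of early G1, read 9.48, 9.76 and 9.89 in controls, 9.45, 9.16 and 9.15 at day 2, 9.45, 9.27 and 9.51 at day 5, 8.92, 9.27 and 9.42 at day 7, then 9.28, 9.42 and 9.42 at day 14. All TNBS arrays but 1 of day 5 lay below every control after quantile normalization. The differences of −0.48, −0.33, −0.53 and −0.36 (SE 0.12) became −0.09, 0.07, −0.12 and 0.10 on the deposited scale, so no fall was called, and another probe set of Ccnd1 gave positive differences (given further on). Stmn1, the microtubule-destabilising protein stathmin, read 9.38, 9.96 and 10.11 in controls, 9.69, 9.90 and 10.18 at day 2, 9.72, 9.79 and 9.74 at day 5, 9.60, 9.22 and 9.10 at day 7, then 9.82, 9.88 and 9.65 at day 14. On day 7, 2 arrays lay below all controls, with a difference of −0.53 ± 0.16 (adjusted p = 0.0198), which was −0.12 on the deposited scale.

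Melk, a kinase of proliferating progenitors, read 5.36, 6.14 and 6.63 in controls, 5.82, 6.04 and 6.33 at day 2, 6.11, 6.25 and 6.11 at day 5, 5.65, 5.47 and 5.32 at day 7, then 6.00, 5.84 and 5.61 at day 14. Its day 7 difference of −0.60 ± 0.21 (adjusted p = 0.0433) was 0.26 on the deposited scale, so its direction depends on the scale. Ccne1, cyclin E1 of the G1 to S transition, differed by 0.12, 0.43, −0.24 and −0.18, with no call.

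In the 9 genes with several probe sets these often disagreed. The second brightest gave the highest difference in 8 of the 9 on day 2, all but Ttk, and in 9 of 9 on days 5, 7 and 14. Only Mad2l1, Cdc20, Tk1 and Ccnd1 have still dimmer ones, and none of those gave the highest difference. Counting a gene as risen where any of its probe sets was called gave 12 of 38 genes on day 2 (14.9% of all genes by the same count), 11 on day 5 (17.9%), 4 on day 7 (17.7%) and 3 on day 14 (9.4%); this count was added after the values were seen. The genes added were Top2a on all 4 days, Ccnb1 and Racgap1 on days 2 and 5, Tk1 on days 2, 5 and 14, Mad2l1 on day 5, and Cdc20 on days 7 and 14 and Ccnd1 on day 7.

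The second probe set of Top2a differed by 1.32 ± 0.27, 1.01 ± 0.27, 0.90 ± 0.27 and 1.12 ± 0.27 on days 2, 5, 7 and 14 (adjusted p = 0.00366, 0.0121, 0.0207 and 0.0138), against 0.33, 0.22, −0.30 and 0.17 for the main one. The second of Ccnb1 differed by 1.30 ± 0.36 on day 2 and 1.18 ± 0.36 on day 5 (adjusted p = 0.019 and 0.0225), and the second of Tk1 by 1.35, 1.38 and 0.88 on days 2, 5 and 14 (SE 0.28). For these genes the main probe set does not settle whether the transcript rose. The second of Cdc20 was called higher on all 4 days, at 1.77, 1.47, 1.28 and 1.39 (SE 0.27), while its 3 dimmest lay between −0.14 and 0.05. The second of Ccnd1 differed by 0.60, 0.46, 0.95 and 0.65 (SE 0.23) and was called higher on day 7 (adjusted p = 0.00535), opposite in sign to the main one. Why probe sets of the same gene differ was not tested.

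**Figure D2:**
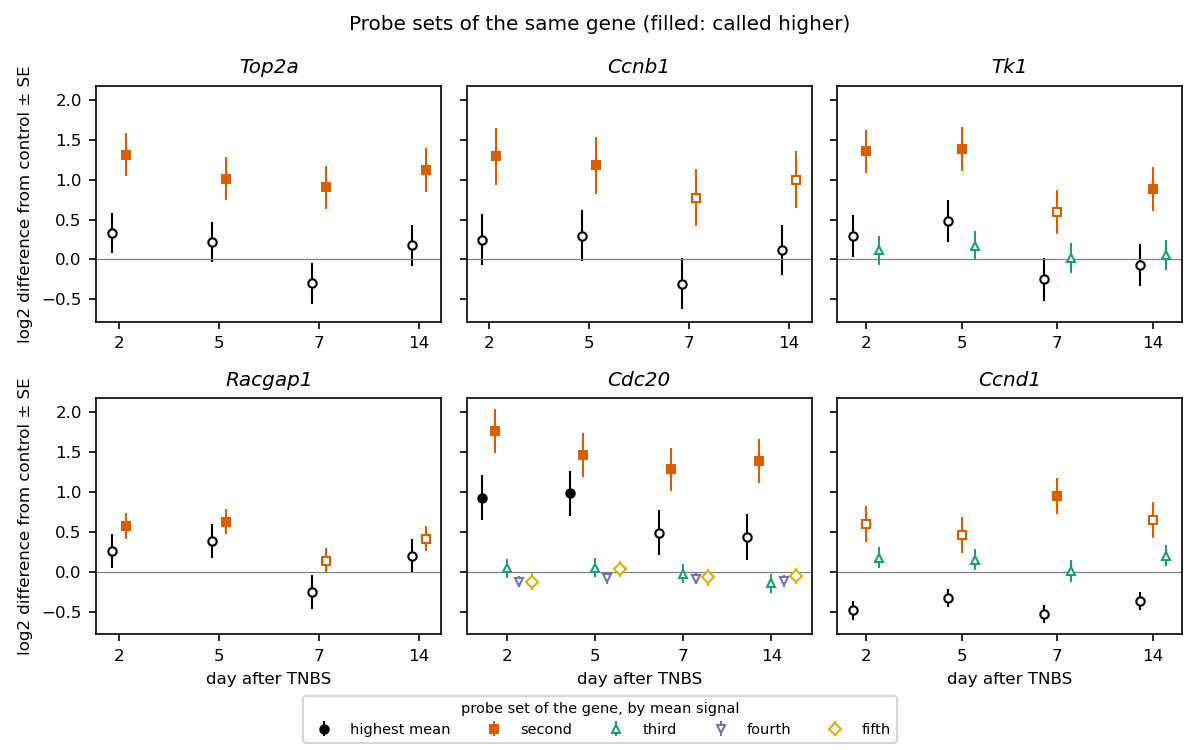
Log2 difference from control ± SE on days 2, 5, 7 and 14 for each probe set of 6 genes, ordered by mean signal; filled symbols are called higher. The second probe set of Top2a is called on all 4 days and the main one on none, and the probe sets of Ccnd1 lie on both sides of 0.

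Whether mitosis and replication genes differed in how far they moved was not tested. The median difference of the 23 mitosis genes was 0.32, 0.30, −0.24 and 0.05 across days 2, 5, 7 and 14 and that of the 11 replication genes 0.48, 0.32, 0.04 and 0.22, against −0.01, −0.02, −0.06 and −0.02 for all genes. On the deposited scale the medians were 1.02 and 1.18, 1.04 and 0.94, 0.52 and 0.54, and 0.91 and 0.99, so the sign of the mitosis median on day 7 depends on the scale. Positive differences were held by 22, 21, 10 and 15 of the 23 mitosis genes on the 4 days in order, and by 11, 11, 6 and 8 of the 11 replication genes.

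In single arrays the mean of the mitosis genes, set against the control mean, was −0.79, 0.31, 0.04, 0.37, 0.39 and −0.32 in controls 1 to 6, −0.06, 0.46 and 0.86 at day 2, 0.25, 0.78 and 0.13 at day 5, 0.12, −0.05 and −0.34 at day 7, then 0.12, 0.37 and −0.13 at day 14. The mean of the replication genes was −0.44, 0.43, 0.02, −0.08, 0.41 and −0.35 in the controls, 0.12, 0.48 and 1.11 at day 2, 0.18, 0.70 and 0.17 at day 5, 0.11, 0 and −0.24 at day 7, then 0.09, 0.55 and 0.03 at day 14. Day 2 replicate 3 and day 5 replicate 2 ranked highest of the 18 arrays for both lists, and control replicate 1 ranked lowest for both. The mitosis mean minus the replication mean ran from −0.34 to 0.45 in the controls and averaged −0.15, 0.04, −0.05 and −0.10 on days 2, 5, 7 and 14, with no TNBS array outside the control range. Control replicate 4 held the largest gap, with all 23 mitosis genes and 2 of the 11 replication genes above the control mean.

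**Figure D3:**
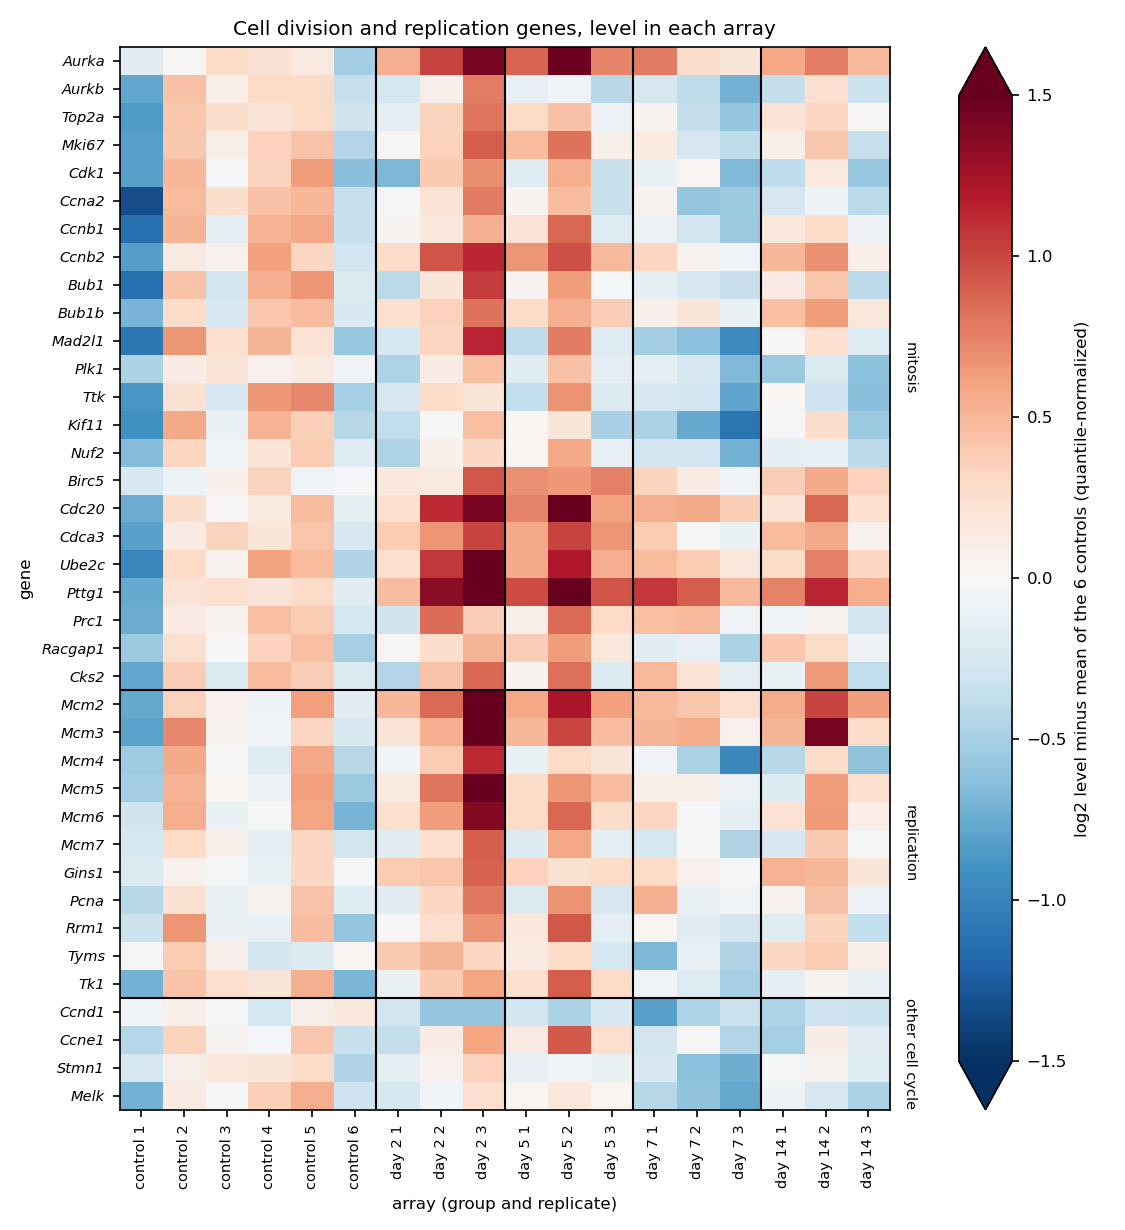
Log2 level of 38 genes (rows) in 18 arrays (columns) after quantile normalization, minus the mean of the 6 controls; colours end at 1.5 in either direction. Control replicate 1 has 0 of 38 genes above the control mean, control replicate 2 has 37 and day 2 replicate 3 has 37.

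The controls differed widely among themselves in these genes. In control replicate 1 none of the 38 genes lay above the control mean and in control replicate 6 only 2 did, whereas 37 did in control replicate 2 and 36 in control replicate 5. The SD of the control arrays was 0.47 for the mitosis mean and 0.37 for the replication mean, against 0.31 for the other mitosis genes, 0.16 for the other replication genes, 0.24 for T cell, 0.22 for enterocyte and 0.04 for crypt base and progenitor markers. B and plasma cell markers spread more widely, with an SD of 0.78: control replicate 2 stood at 1.56 and the other 5 controls at −0.60 to −0.20, and it was also the highest control for T cell markers, at 0.47. In that array Ms4a1, the CD20 gene of B cells, read 8.62, against 3.20 to 4.12 in the other controls. What sets these control arrays apart was not tested.

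Markers of other cell types moved beside these genes, and their part in the differences was not tested. In day 2 replicate 3, the array with the highest mitosis and replication means, T cell markers averaged 1.99 above the control mean, with 11 of 12 above every control, and B and plasma cell markers 2.10, with 7 of 9 above every control. In day 2 replicates 1 and 2 the same lists stood at −0.38 and −0.22 for T cells and −0.51 and −0.52 for B and plasma cells. Day 14 replicate 2, the highest day 14 array for both gene lists, had T cell markers at 1.05 and B and plasma cell markers at 1.92. Day 5 replicate 2, also high in both lists, had T cell markers at 0.12 and B and plasma cell markers at −0.24, with macrophage and monocyte markers at 3.15, the highest of all arrays.

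Macrophage and monocyte markers averaged 1.83, 2.21, 2.68 and 0.31 on days 2, 5, 7 and 14, and were thus highest on day 7, when the mitosis and replication means were −0.09 and −0.04. Crypt base and progenitor markers averaged −0.20, −0.40, −0.48 and −0.13 and enterocyte markers −0.74, −0.92, −0.80 and 0.10. Of the crypt markers 1 of 9 was called higher on each of days 2, 7 and 14 and 0 on day 5, and 0 were called lower. That share was 11.1%, against 11.4%, 14.7% and 6.39% of all genes on days 2, 7 and 14. The 1 called higher was Myc, a gene of many dividing cells.

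**Figure D4:**
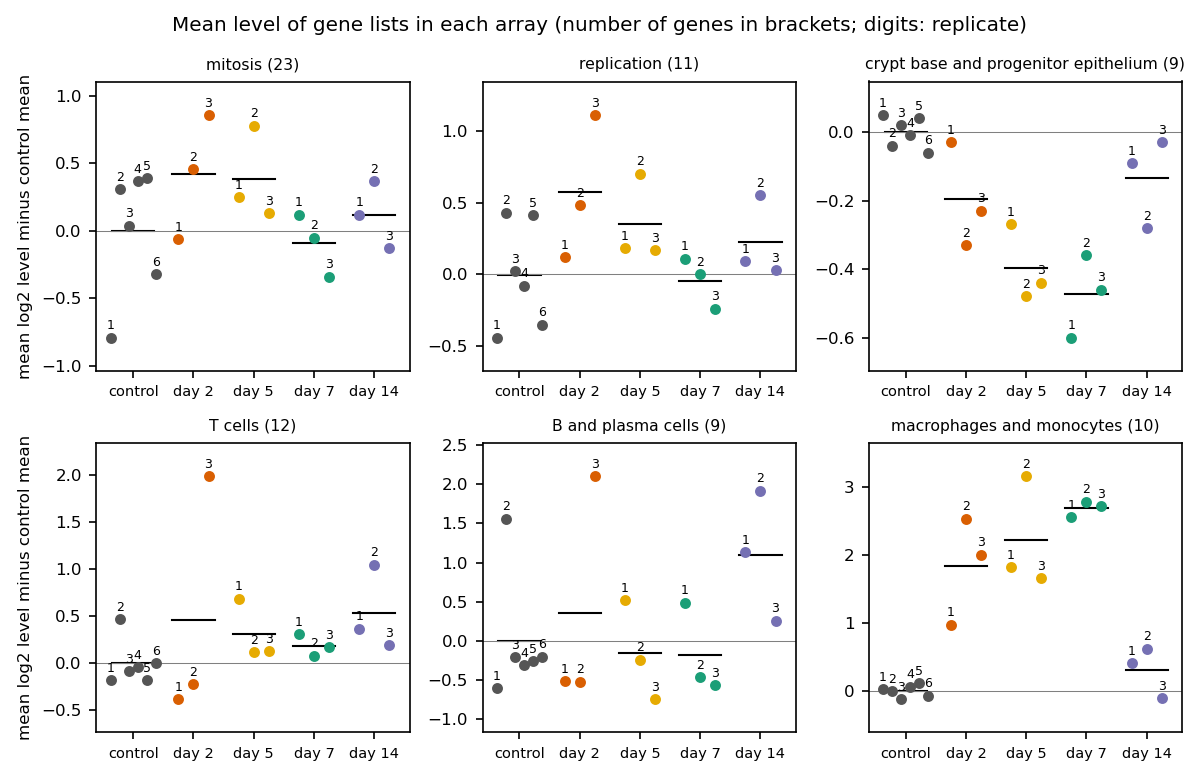
Mean log2 level of mitosis genes, replication genes and 4 cell type lists in each array, minus the control mean (points, numbered by replicate; lines are group means; axes differ between panels). Day 2 replicate 3 is highest in the mitosis, replication, T cell and B cell panels. Day 7 has the lowest group mean of both gene lists and the highest group mean of macrophage markers.

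Between TNBS days the group mean of most of the 38 genes was lowest on day 7, with no call against day 5. These comparisons use the deposited values, since the TNBS arrays share nearly the same distribution. The group mean was lowest on day 7 in 33 of the 38 genes (86.8%, against 34.3% of all genes), and highest on day 2 in 22, on day 5 in 15 and on day 14 in 1. From day 5 to day 7, 37 of 38 differences were negative, with a median of −0.45 for mitosis and −0.39 for replication genes and −0.02 for all genes. At an unadjusted p under 0.05, 10 of the 38 were lower and 0 higher, against 4.47% and 3.03% of all genes, but 0 were called after adjustment (all genes 0.0141%). Adjusted p from limma were 0.683 for Aurka (−0.59 ± 0.22), 0.847 for Mki67 (−0.57 ± 0.32) and 0.667 for Tyms (−0.49 ± 0.18). The genes moved together within single arrays, so these counts are not independent observations. After quantile normalization the mitosis means of day 7 (−0.34 to 0.12) overlapped with days 2 (from −0.06) and 14 (from −0.13) but not with day 5 (from 0.13). The replication means of day 7 (−0.24 to 0.11) overlapped with day 14 (from 0.03) but not with days 2 and 5.

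From day 7 to day 14 Tyms was the 1 gene of 38 that was called (all genes 6.36%). On the deposited scale it read 4.10, 4.73 and 4.32 at day 7, then 5.17, 5.24 and 4.93 at day 14, with no overlap, after 5.24, 5.36 and 5.18 at day 2 and 4.95, 5.15 and 4.52 at day 5. It rose by 0.73 ± 0.18 (adjusted p = 0.031), and in an F test among the 4 TNBS days it was again the 1 gene called (all genes 3.45%). In the F test 4 of 38 had an unadjusted p under 0.05, for which the share of all genes was not counted. Leaving out any array of days 7 or 14 other than day 7 replicate 2 ended the call. Day 5 against day 2 and day 14 against day 2 called 0 of 38 (all genes 0.0141% and 0.0422%). At an unadjusted p under 0.05, 1 gene was lower on day 5 than on day 2 (all genes 5.56%). None differed at that p in day 14 against day 2 (all genes 6.41% higher and 4.52% lower). From day 2 to day 5 all 7 helicase genes had negative differences, from −0.34 to −0.21, none of them called. That direction rests on 1 array: the median of the 11 replication genes between these days was −0.25, and 0.02 without day 2 replicate 3.

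Other genes of the same processes were read from separate lists. Of 47 other mitosis genes 7, 8, 3 and 1 rose on days 2, 5, 7 and 14 (14.9%, 17%, 6.38% and 2.13%, against 11.4%, 14.7%, 14.7% and 6.39% of all genes), with medians of 0.13, 0.12, −0.27 and 0.08, and none fell. Cenpn, which encodes a protein of the inner kinetochore, rose on all 4 days, by 1.12 ± 0.21, 1.24 ± 0.21, 1.13 ± 0.21 and 0.87 ± 0.21 (adjusted p = 0.00158, 0.000514, 0.000825 and 0.0122). Kif18a, a kinesin that damps chromosome movement, and Cenpa, the centromeric histone, differed by −0.81 and −0.53 on day 2 after quantile normalization and by −0.01 and 0.08 on the deposited scale, with no call.

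Of 47 other replication genes 10, 7, 3 and 3 rose (21.3%, 14.9%, 6.38% and 6.38%), a share above that of all genes on day 2, near it on days 5 and 14 and below it on day 7, with medians of 0.28, 0.14, −0.08 and 0.19, and none fell. Rpa1, the large subunit of the protein that coats single-stranded DNA, rose by 1.60 ± 0.17, 1.31 ± 0.17, 1.00 ± 0.17 and 1.29 ± 0.17 on days 2, 5, 7 and 14 (adjusted p = 2.82e-05, 1e-04, 0.000594 and 0.000252). Rnaseh2a, the catalytic subunit of ribonuclease H2, rose by 0.74 to 0.79 on all 4 days. Orc4, of the origin recognition complex, differed by −0.85 on days 5 and 7 after quantile normalization and by −0.21 and −0.20 as deposited, with no call. Rpa1 and Cenpn were thus higher on day 7 too, when the median of their lists was below 0.

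Upstream of S phase, 3, 2, 3 and 3 of 8 genes rose on days 2, 5, 7 and 14 (37.5%, 25%, 37.5% and 37.5%). Their list holds G1 cyclins and kinases together with Cdc25a and Myc, which are neither. The genes that rose were Cdc25a and Ccnd3 on each day and Myc on days 2, 7 and 14, so no kinase was among them. The shares of all genes were 11.4%, 14.7%, 14.7% and 6.39%. The median difference of the 8 was 0.35, 0.25, 0.16 and 0.09. Cdc25a, the phosphatase that activates CDK2, rose by 0.89, 0.87, 0.69 and 1.07 (SE 0.16), Ccnd3, cyclin D3, by 0.83, 0.74, 0.98 and 0.68 (SE 0.17), and Myc by 0.87, 0.50 and 0.53 on days 2, 7 and 14 (SE 0.13). Myc is also in the crypt list. Of 18 cell cycle transcription factors and genes that restrain them, 3, 2, 1 and 0 rose (16.7%, 11.1%, 5.56% and 0%). These shares were above that of all genes on day 2 and below it on days 5, 7 and 14. The medians of the 18 genes were −0.11, −0.30, −0.33 and −0.09, and none fell. Rb1, the retinoblastoma gene that restrains E2F, differed by −0.85, −0.83, −0.74 and −0.64 after quantile normalization and by −0.06, −0.04, 0.07 and 0.22 as deposited.

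Of 19 inhibitors and checkpoint genes 2, 5, 4 and 2 rose (10.5%, 26.3%, 21.1% and 10.5%, the first of them below the share of all genes), and 1 fell on each of days 2, 5 and 7. The median difference of the 19 was 0.06, 0, −0.02 and 0.01 on days 2, 5, 7 and 14. The 3 with the smallest p over the days were growth arrest genes of the Gadd45 family. Gadd45g rose by 2.01 ± 0.40, 2.72 ± 0.40 and 3.08 ± 0.40 on days 2, 5 and 7 (adjusted p = 0.00272, 2e-04 and 5.86e-05), Gadd45b by 2.13 ± 0.36 and 2.52 ± 0.36 on days 5 and 7, and Gadd45a by 1.26 ± 0.24 and 1.36 ± 0.24 on the same days. On day 14 the 3 differences were 1.15, 0.11 and 0.73 with no call. These 3 genes, unlike the median of their list, were thus highest on day 7, the day on which most of the mitosis and replication genes were lowest among the TNBS days. Whether the patterns are linked was not tested.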

How the data were processed

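The deposited table holds 31099 probe sets by 18 arrays. Per the labels, normalization by the authors used Bioconductor's affyPLM. The deposited values were read as log2; their log base, the background method and whether the 18 arrays were processed in 1 run are not stated in the sources used. Without 57 control probe sets there were 31042 tested; 20826 carry 1 gene symbol in the platform annotation (14217 genes), 436 several and 9780 none listed, and 0 columns of other samples were present.

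limma 3.58.1 in R 4.3.3 fitted 1 coefficient per group to all 18 arrays (6 controls, 3 for each of 4 days), with two-sided moderated tests and Benjamini-Hochberg adjustment over all tested probe sets. Differences from control used values quantile-normalized here across the 18 arrays, and a gene was called only where the deposited values gave the same call. Quantile normalization removes any change shared by most genes. Differences between TNBS days used the deposited values. The labels do not say more of the replicates than their numbers, and the number of arrays limits the precision. The fit after quantile normalization was run on simulated data with independent genes and changes on day 5 only. The condition on the deposited values and the lower control arrays were not part of that simulation.

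The genes, lists and tests were chosen with earlier results of these data known, so lists are described by counts and medians without a test. Role groups were formed, and the count over any probe set was added, after the values were seen. Values in each array are given for the mitosis (up to 6), replication (up to 4) and other (up to 3) genes with the smallest p of the moderated F test over the 4 differences from control, and for Mki67, Top2a, Ccnb1, Pcna and Ccnd1; up to 3 genes of each other list were named by the same p. Alternatives were each scale alone, centring on the array median, a filter on the lowest 50% of probe sets, a trended and robust prior, fits of only the groups compared, the replicate number as a block, adjusted p under 0.01, the mean of a gene's probe sets, and leaving out each array.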

Additional observations from a re-analysis of the deposited data

Results flagged for a closer look

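Among the 38 genes tested for an array far from the rest of the 6 controls, 1 was marked: Plk1 read 6.41 in control replicate 1, against 6.83 to 7.07 in the other 5 controls. Chance marks about 1 in 20 groups, so 1 of 38 is not more than chance would mark. The same array was the lowest of all 18 in the mean of the mitosis genes and in that of the replication genes.

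Between TNBS days, Tyms was higher on day 14 than on day 7 by 0.73 on the deposited log2 scale, by limma's test of that difference.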

How the results depend on the processing

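Of 378 counts and medians recomputed under other settings, 311 stayed within 1.5 times the count or 1 SD of the median and 67 moved; the causes were not tested. After quantile normalization alone 1, 1 and 4 genes were lower on days 2, 5 and 7. The deposited values alone, whose control arrays lie lower as a whole, called 37, 34, 18 and 32 genes higher on days 2, 5, 7 and 14. Medians there were 1.02, 1.04, 0.52 and 0.91 for mitosis and 1.18, 0.94, 0.54 and 0.99 for replication genes, against 0.62, 0.59, 0.56 and 0.62 for all genes. The shares of all genes called are not set beside the counts here, so the counts alone do not compare these genes with the array. On the deposited scale the differences of Melk were 0.807 on day 2 and 0.632 on day 14 and that of Stmn1 0.399 on day 14, opposite in sign. A further 8 differences of named genes, called neither on both scales nor on the deposited one, turned from negative to positive. They were those of Ccnd1 and Stmn1 on day 5, Mki67, Top2a, Ccnb1, Tyms and Melk on day 7, and Ccnd1 on day 14. Centring on the array median called 1, 2, 4 and 1 lower on days 2, 5, 7 and 14, 2 higher on day 7 and 3 on day 14, and gave a replication median of −0.23 on day 7. At adjusted p under 0.01, 3, 3 and 0 were higher on days 2, 5 and 7. Fits of only the groups compared gave 3 on day 2 and 3 on day 14, and a trended and robust prior gave 1 on day 14. Counting any probe set gave 11, 4 and 3 on days 5, 7 and 14, and averaging a gene's probe sets gave a mitosis median of 0.05 on day 7. Day 14 against day 7 called 0 with the filter on dim probe sets, which left out Tyms with Bub1b, Birc5 and Gins1, in the fit of 2 groups and at adjusted p under 0.01.

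The F test among TNBS days called 0 with quantile-normalized values, with that filter, at adjusted p under 0.01, with only the 12 TNBS arrays and with the replicate block. Replicate numbers were not taken to pair the samples, since same-numbered arrays of different groups correlated from −0.329 to 0.469 in their deviations (median 0.063 over 30 pairs, against −0.0358 for other numbers), while 10 of 15 arrays correlated best with their own number, a hint from the data and not from the design. The block moved no other count past the limit.

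Leaving out 1 array at a time gave 1 to 12 genes higher on day 2, 3 to 8 on day 5, 0 to 1 on day 7 and 0 to 1 on day 14, 0 to 1 for day 14 against day 7, 0 to 1 for the F test, and −0.09 to 0.16 for the day 7 replication median. Of the named genes' own differences, 49 lost and 79 gained a call over all settings and 1081 stayed on the same side of the test's threshold, of which 48 changed sign with no call. With 3 arrays a day and a wide control spread, differences of about the size of their SE could not be resolved.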
